A study of Mus musculus with 12 samples.

Results

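The 39 interferon-stimulated genes described here were followed in vascular anomalies of fat, lesions of malformed vessels, and in unaffected fat, all from mice of the C57BL/6 strain. They were fixed by symbol, and each was found among the 32774 genes of the deposited table. The anomalies came from mice with the genotype VEC-Cre;SB Transposase; onc3, in which Cre is expressed from the promoter of Cdh5, the VE-cadherin gene. The control mice carried SB Transposase; onc3 without Cre, so both groups share the Sleeping Beauty transposase and the onc3 transposon that it can move. No age or treatment is given in the labels. Sequencing covered 7 anomaly animals in 8 libraries and 4 control animals in 4 libraries; a leg piece and an arm piece of animal M566 were averaged on the log2 scale. Cre is directed to the endothelium, but whole tissue was sequenced, so a level does not tell which cell held the RNA. The titles call 5 anomaly animals subQ (M580, M566, F578, M610 and M605) and 2 anomaly animals fat (18f and M278), and all 4 controls are called fat.

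Totals ran from 10337258 to 33980694 recovered reads in 11 libraries, and the values of M580 came to 953994, where 1 read was worth 0.742 CPM, the unit of read counts scaled to library size. Even there the lowest member, Oas1g, stood at 5.20 CPM. The first header line gives M605 a control name while its title and labels make it an anomaly, and it was kept as an anomaly. As a check of the tissue, Adipoq, the adipocyte hormone gene, ran from 1502 to 4820 CPM in the controls and from 3.79 to 1116 CPM in the anomaly libraries. Pecam1, an endothelial adhesion gene, was present in every library, from 186 to 1346 CPM.

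Interferons are secreted antiviral cytokines. Type I interferons bind a receptor made of IFNAR1 and IFNAR2, whose kinases JAK1 and TYK2 start the signal. STAT2 and IRF9 take part in a complex that binds interferon-stimulated response elements in the promoters of target genes. Interferon gamma uses another receptor and acts through gamma-activated sites. The induced genes encode sensors of foreign nucleic acid, enzymes and membrane proteins that block viral growth, and regulators of the response itself. Endothelial cells, macrophages and adipocytes all carry the type I receptor.

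Promoter stretches of 6 members are shown because they hold the element through which the response is known to work, in genes that differed widely in these tissues and in genes that did not pass the test. The sequences are from RefSeq on GRCm38.p6, 5′ to 3′ on the strand of each gene. Capitals mark every match to the core of the response element, which is GAAA, any 2 bases (NN) and GAAA again, or to its reverse complement, TTTC, NN and TTTC; overlapping matches run together. Isg15 lies at chr4:156200840-156200919 on the minus strand, and Oas1a at chr5:120907526-120907605 on the minus strand. Oas1g lies at chr5:120887614-120887693 on the minus strand, and Oas3 at chr5:120777690-120777769 on the minus strand. Ifit3 lies at chr19:34583372-34583451 on the plus strand, and Gbp7 at chr3:142530248-142530327 on the plus strand.
Isg15: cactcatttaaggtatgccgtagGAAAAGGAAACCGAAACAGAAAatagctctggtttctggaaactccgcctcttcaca
Oas1a: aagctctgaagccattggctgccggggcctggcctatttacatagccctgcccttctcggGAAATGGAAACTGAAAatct
Oas1g: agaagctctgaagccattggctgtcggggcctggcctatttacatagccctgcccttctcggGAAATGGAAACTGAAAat
Oas3: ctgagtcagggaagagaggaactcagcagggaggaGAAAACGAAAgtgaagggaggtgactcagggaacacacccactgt
Ifit3: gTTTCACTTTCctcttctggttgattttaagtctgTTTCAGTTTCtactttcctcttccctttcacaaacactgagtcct
Gbp7: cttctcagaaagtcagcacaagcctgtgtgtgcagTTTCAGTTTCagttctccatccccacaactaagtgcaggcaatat

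Promoter windows were found for 29 of the 39 members, and the 250 bases before each start were searched on both strands. The core occurred in 15 of the 29 members (51.7%) and in 936 of 27025 genes with a window (3.46%). Among members that rose in the anomalies it occurred in 9 of 15, namely Isg15, Oas1a, Oas1g, Oas3, Ifit1, Rsad2, Bst2, Trim30a and Stat2. Among members that did not pass the test it occurred in 6 of 14, namely Ifit3, Ifit3b, Gbp2, Gbp3, Gbp7 and Slfn5. A gamma-activated site, TTCNNNGAA, occurred in 6 of 29 members (20.7%) and in 8.13% of genes with a window. Among the members such a site overlaps the element core in Bst2 alone. The stretches of Oas1a and Oas1g are near copies: shifted by 2 bases, 77 of the 78 bases compared were equal. These matches describe letters and do not show binding.

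All 39 members passed the filter on low values and were tested. Of these, 23 rose in the anomalies, none fell, and 16 did not pass the test (limma, adjusted over all 12955 genes tested, threshold 0.05). That is 59.0% of the members called higher, beside 15.3% of all genes tested, and 0 members called lower beside 23.2% of all genes tested. The median log2 fold change, anomaly minus control, was 1.34 over the members and -0.10 over all genes tested. In these whole-tissue libraries more cells of a type and more RNA per cell cannot be told apart. The 7 anomaly animals lay above every control animal, without overlap, for 9 members: Oas1a, Oas1g, Oas3, Oasl1, Oasl2, Isg15, Bst2, Trim30a and Xaf1. These are 23.1% of the members, beside 8.3% of all genes tested. For M566 they rest on the mean of its 2 pieces. Its leg piece alone lay inside the control range for Oasl1, Oasl2 and Trim30a and below every control for Bst2 and Xaf1. With the leg piece standing for M566, Bst2 and Xaf1 were no longer called. The count of members called higher was 22 without M605, beside 1671 of all genes, and 23 without M580, beside 1949 of all genes. Without control animal M602 it was 14, beside 9.26% of all genes, and Irf7, Irf9, Dhx58, Zbp1, Ifit1, Oas1b, Usp18, Rsad2 and Xaf1 were no longer called. At an adjusted p under 0.01 it was 10, beside 7.37%. Oas1g, Oas3, Mx2 and Ifi44 had control means under 1 log2 CPM and passed the filter through their anomaly values. Their calls, and the lack of overlap for Oas1g and Oas3, are therefore no sign of stability. Of the other 35 members 19 were called higher (54.3%), and with no filter 22 of 39 were, beside 6.59% of all genes. With limma-voom on the recovered reads it was 21, beside 15.9% of all genes. Scaling to library totals gave 29 members called higher, beside 35.2% of all genes, and 0 called lower, beside 12.1%; under this scaling 4618 of all genes were higher and 1583 lower, against 1985 and 3001 with the deposited scaling. No member was lower at an unadjusted p under 0.05 either (0 with limma, 0 adjusted calls with limma-voom).

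**Figure D1:**
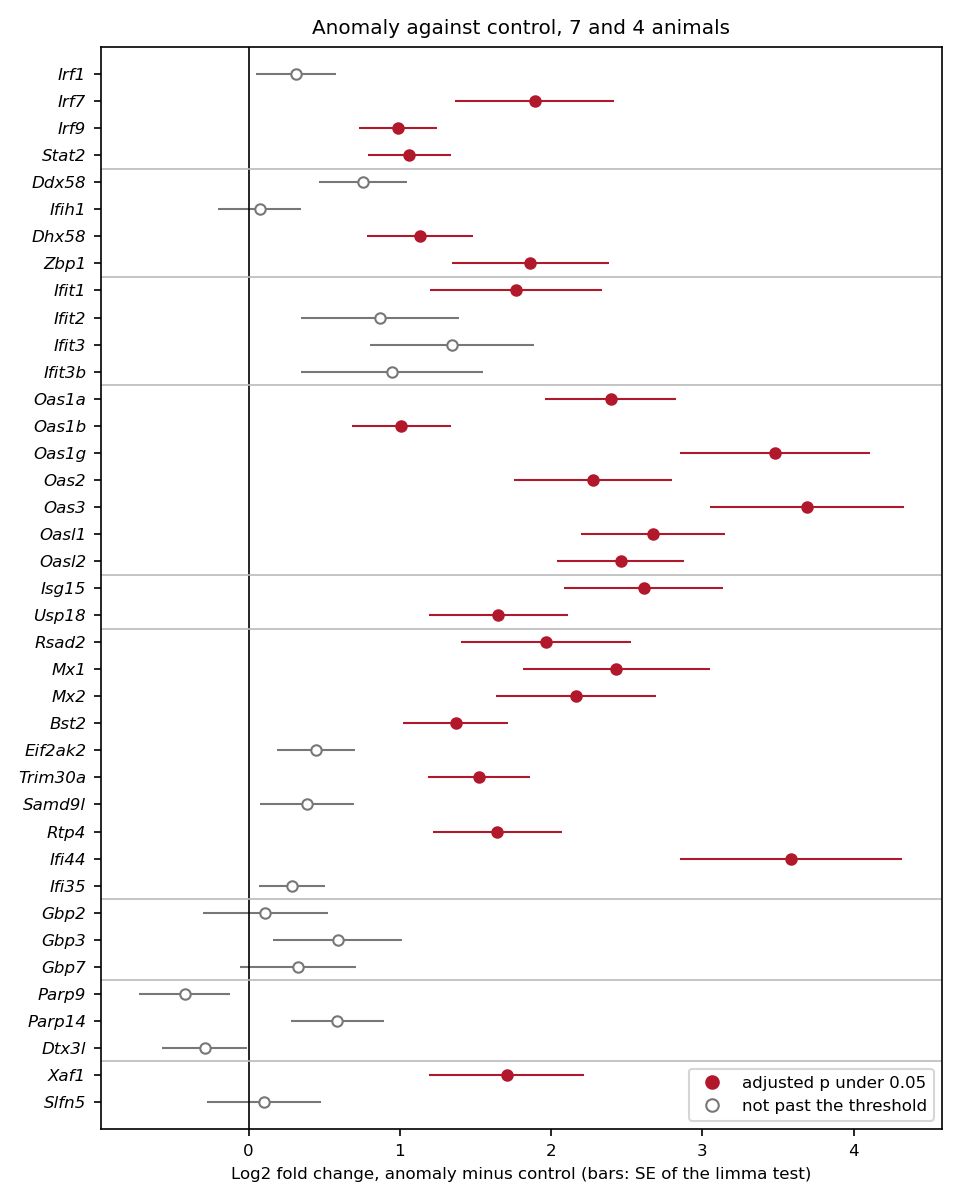
Log2 fold change of each member, anomaly minus control (x axis), with the SE of the limma test as bars, for 7 anomaly and 4 control animals; filled points passed the threshold and grey lines part the groups by role. The 7 members of the 2-5A synthetase family are all filled, from 1.01 for Oas1b to 3.69 for Oas3, and the guanylate-binding proteins and the PARP genes are all open.

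The first role described is that of the factors that carry the signal to the genes. Irf7, Irf9 and Stat2 rose, and Irf1 did not pass the test. STAT2, the partner of IRF9 in the type I complex, had levels of 5.62, 5.97, 5.38 and 5.67 log2 CPM in controls F539, M5, M602 and M2, and its anomaly animals ran from 5.95 in 18f through a median of 6.83 to 7.29 in M610. Of the anomaly animals only 18f lay inside the control range, and the fold change was 1.06 ± 0.27 on the log2 scale (SE, n = 7 and 4; limma adjusted p = 0.0116). Irf9, the DNA-binding subunit of that complex, rose by 0.99 ± 0.26 (limma adjusted p = 0.0125). Irf7, the factor that amplifies interferon production, rose by 1.89 ± 0.52, or 3.71-fold (limma adjusted p = 0.0163). IRF1, a factor that interferon gamma induces strongly, stood at 6.33, 6.25, 5.93 and 6.53 log2 CPM in the same order of controls and between 5.90 and 7.24 with a median of 6.57 in the anomalies. Its groups overlapped, with a log2 difference of 0.31 ± 0.27 (limma adjusted p = 0.371).

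Of the 4 sensors of foreign RNA and DNA, Zbp1 and Dhx58 rose, while Ddx58 and Ifih1 did not pass the test. Zbp1, a sensor of left-handed nucleic acid that can start necroptosis, read 2.92, 3.38, 3.01 and 3.68 log2 CPM in F539, M5, M602 and M2 and ran from 3.57 through 5.32 to 6.06 in the anomalies. It rose by 1.86 ± 0.52 (limma adjusted p = 0.0167), with 18f and the mean of M566 inside the control range and the other 5 animals above it. Dhx58, which encodes the regulatory helicase LGP2, rose by 1.13 ± 0.35 (limma adjusted p = 0.0255). The call of Dhx58 was lost in 4 of the 11 fits that left out 1 animal (highest limma adjusted p 0.0644). Ddx58, the gene of the RNA sensor RIG-I, had controls at 5.57, 5.61, 5.29 and 5.36 log2 CPM and anomalies between 5.37 and 7.08 with a median of 6.32. Here 5 of 7 animals lay above the controls, and the log2 difference of 0.75 ± 0.29 missed the threshold (limma adjusted p = 0.0599). It passed with limma-voom on the recovered reads (adjusted p = 0.0432). Ifih1, the gene of the long-RNA sensor MDA5, was nearly flat in the controls at 5.21, 5.14, 5.21 and 5.30 log2 CPM, and the anomalies spread to both sides, from 4.52 through 5.24 to 6.19. The log2 difference was 0.07 ± 0.27 (limma adjusted p = 0.848), with 2 animals above and 2 below all controls.

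The IFIT proteins bind foreign RNA and hinder its translation, and their 4 genes lie side by side on chromosome 19. Ifit1 rose, from 2.72, 3.09, 2.33 and 2.39 log2 CPM in F539, M5, M602 and M2 to a range of 2.69 to 6.06 with a median of 4.49 in the anomalies. Its log2 fold change was 1.77 ± 0.57 (limma adjusted p = 0.0307), and 6 of 7 animals lay above every control. The adjusted p of Ifit1 was 0.0686 with limma-voom. Its call was lost in 5 of the 11 fits that left out 1 animal (highest limma adjusted p 0.0889). Ifit2 stood at 3.44, 4.61, 4.32 and 3.94 log2 CPM in the controls and between 3.53 and 6.31 with a median of 5.01 in the anomalies. Ifit3 stood at 2.51, 3.89, 3.54 and 3.98 log2 CPM in the controls and between 3.39 and 6.25 with a median of 4.87 in the anomalies. Both overlapped, with log2 differences of 0.87 ± 0.52 for Ifit2 (limma adjusted p = 0.208) and 1.34 ± 0.54 for Ifit3 (limma adjusted p = 0.0709). Ifit3b, a close copy of Ifit3, read 0.97, 2.50, 2.25 and 2.25 log2 CPM in the controls and from 1.37 through 2.87 to 4.58 in the anomalies, a log2 difference of 0.95 ± 0.60 (limma adjusted p = 0.229). Control F539 was the lowest control for Ifit2, Ifit3 and Ifit3b. How the authors' counting split reads between such copies is not given in the sources used here, so the values of Ifit3 and Ifit3b are uncertain.

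The 2-5A synthetase family, most of whose enzymes make the short RNA-like messenger that switches on the RNA-cutting enzyme RNase L, had 7 of 7 genes past the test, with a median log2 fold change of 2.46; 6 of 7 passed with limma-voom. All 7 lie on chromosome 5. Oasl2 had the lowest adjusted p of the family. It read 4.58, 4.99, 3.72 and 4.58 log2 CPM in F539, M5, M602 and M2 and from 5.74 through 7.03 to 7.92 in the anomaly animals, with no overlap. It rose by 2.46 ± 0.42, or 5.50-fold (limma adjusted p = 0.00199). The leg piece of M566 alone, at 4.80 log2 CPM, lay inside the control range, and the arm piece read 6.69. Oas3, which makes the messenger on long RNA, had the largest rise of the 39 members: controls stood at 1.16, 0.84, -1.17 and 0.42 log2 CPM and anomalies between 2.01 and 5.37 with a median of 3.91. Its log2 fold change was 3.69 ± 0.64 (limma adjusted p = 0.00211). Oas1g rose by 3.48 ± 0.63 (limma adjusted p = 0.00242) and Oas1a by 2.39 ± 0.43 (limma adjusted p = 0.00249). These are closely related genes, and shared reads between them would make each value uncertain.

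Oasl1, a regulator of Irf7 translation that lacks synthetase activity in mice, rose by 2.67 ± 0.48 (limma adjusted p = 0.00237), and Oas2 rose by 2.28 ± 0.52 (limma adjusted p = 0.00713). Oas1b, the flavivirus resistance gene, which is truncated in C57BL/6 mice, had the weakest test in the family. It read 2.44, 2.72, 2.13 and 2.73 log2 CPM in the controls and from 2.67 through 3.56 to 4.38 in the anomalies, a rise of 1.01 ± 0.33 (limma adjusted p = 0.0318). The adjusted p of Oas1b was 0.0574 with limma-voom, and its call was lost in 7 of the 11 fits that left out 1 animal (highest adjusted p 0.105) and with the leg piece alone for M566. Oas1a, Oas2, Oas3, Oasl1 and Oasl2 were called higher in all 25 alternatives. Oas1g was called in the 21 that tested it and fell under the filter in the subQ-titled and fat-titled fits and without M610 or M278. Oas3 and Oas1g are among the members that passed the filter through their anomaly values.

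ISG15 is a ubiquitin-like protein that is joined to other proteins, and USP18 is the protease that removes it and also dampens the type I receptor. Both genes rose. Isg15 read 2.04, 2.43, 2.16 and 2.35 log2 CPM in F539, M5, M602 and M2 and from 2.88 in 18f through 5.13 to 6.18 in M278. The groups did not overlap, and the log2 fold change was 2.61 ± 0.52, or 6.11-fold (limma adjusted p = 0.00384). Usp18 read 2.85, 2.72, 2.12 and 2.47 log2 CPM in the controls and from 2.80 through 4.21 to 5.41 in the anomalies. Of the anomaly animals only 18f lay inside the control range of Usp18, which rose by 1.65 ± 0.46 (limma adjusted p = 0.0161).

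**Figure D2:**
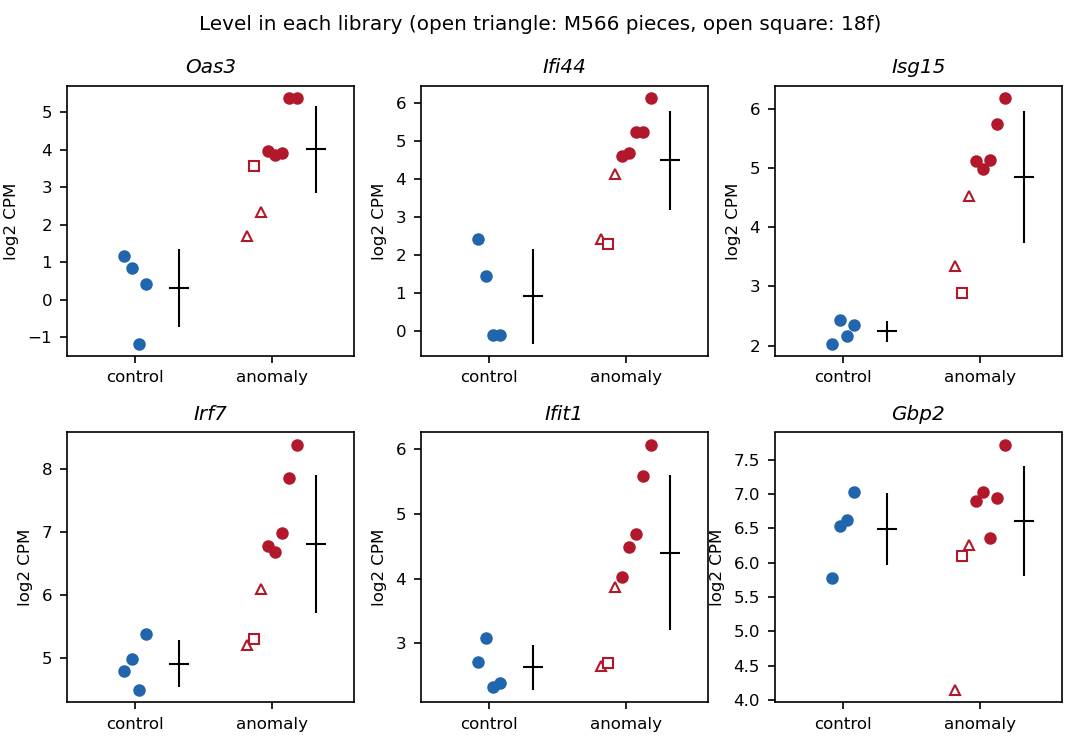
Log2 CPM of 6 members in each library, controls in blue and anomalies in red, with the mean and SD over animals as a black bar; open triangles are the 2 pieces of M566 and open squares are 18f. For Oas3 and Isg15 the anomaly animals lie above all controls, for Ifi44, Irf7 and Ifit1 the lowest anomalies reach into the control range, and for Gbp2 the groups overlap widely, with a log2 difference of 0.11.

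Of the 10 other antiviral effectors 7 rose: Ifi44, Mx1, Mx2, Rsad2, Rtp4, Trim30a and Bst2. Ifi44, an interferon-induced protein of antiviral activity, read 2.42, 1.43, -0.12 and -0.13 log2 CPM in F539, M5, M602 and M2 and from 2.27 in 18f through 4.67 to 6.12 in M278. It rose by 3.59 ± 0.73 (limma adjusted p = 0.00419), and 18f lay below control F539. Mx1 and Mx2 encode dynamin-like proteins that trap viral components, and Mx1 is defective in C57BL/6 mice. They rose by 2.43 ± 0.62 and 2.17 ± 0.53 (limma adjusted p = 0.0111 and 0.00941), and Mx1 had an adjusted p of 0.069 with limma-voom. Rsad2, the gene of viperin, which makes a chain terminator of viral RNA, rose by 1.96 ± 0.56 (limma adjusted p = 0.0185). Rtp4, a negative regulator of the response in mice, rose by 1.65 ± 0.43 (limma adjusted p = 0.0122). Trim30a rose by 1.52 ± 0.34 (limma adjusted p = 0.00622) and Bst2, the gene of tetherin, which holds budding virus at the cell surface, by 1.37 ± 0.35 (limma adjusted p = 0.011).

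The remaining effectors, Eif2ak2, Samd9l and Ifi35, did not pass the test. Eif2ak2, the gene of the kinase PKR that stops translation, read 4.50, 5.15, 5.10 and 4.87 log2 CPM in the controls and from 4.56 through 5.35 to 5.98 in the anomalies. Its log2 difference was 0.45 ± 0.26 (limma adjusted p = 0.191). Samd9l, an inhibitor of poxvirus growth, read 5.27, 6.16, 5.91 and 5.91 log2 CPM in the controls and from 5.43 through 6.28 to 7.14 in the anomalies, a log2 difference of 0.38 ± 0.31 (limma adjusted p = 0.345). Ifi35 read 4.71, 5.06, 4.92 and 5.05 log2 CPM in the controls and from 4.85 through 5.10 to 6.12 in the anomalies. With M278 the highest by far, its log2 difference was 0.29 ± 0.22 (limma adjusted p = 0.321). All 3 passed the threshold when libraries were scaled to their totals, a scaling that moved the median of all genes by 0.43.

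The guanylate-binding proteins coat bacteria and parasite vacuoles and answer interferon gamma above all; 0 of the 3 members passed the test with limma, 0 had an unadjusted p under 0.05 and 0 passed with limma-voom. Gbp2 read 5.78, 6.54, 6.62 and 7.04 log2 CPM in F539, M5, M602 and M2 and from 5.20 through 6.89 to 7.72 in the anomalies (log2 difference 0.11 ± 0.42, limma adjusted p = 0.849). Gbp3 read 4.63, 5.46, 4.98 and 5.52 log2 CPM in the controls and from 4.60 through 5.82 to 6.98 in the anomalies (0.59 ± 0.42, limma adjusted p = 0.291). Gbp7 read 4.70, 5.52, 5.11 and 5.35 log2 CPM in the controls and from 4.11 through 5.63 to 6.54 in the anomalies (0.33 ± 0.39, limma adjusted p = 0.524). In all 3 the leg piece of M566 lay below every control. The promoter stretch of Gbp7 printed above holds the same element core as that of Ifit3.

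PARP9 and its ubiquitin ligase partner DTX3L form a complex that acts at DNA damage and in the interferon response, and PARP14 is a related ADP-ribosyltransferase. Of their genes 0 of 3 passed the test with limma, 0 had an unadjusted p under 0.05 and 0 passed with limma-voom. Parp9 and Dtx3l were the only members with a log2 difference below 0. Parp9 read 5.43, 6.51, 6.77 and 6.80 log2 CPM in F539, M5, M602 and M2 and from 5.24 through 5.96 to 6.73 in the anomalies (log2 difference -0.42 ± 0.30, limma adjusted p = 0.286). Control F539 lay more than 1 log2 unit below the other controls, and without it Parp9 was called lower (-0.74, limma adjusted p = 0.0404). Dtx3l read 5.67, 6.19, 6.15 and 6.50 log2 CPM in the controls and from 4.94 through 5.81 to 6.68 in the anomalies (-0.29 ± 0.28, limma adjusted p = 0.43). Under scaling by library totals both differences turned to 0.003342 and 0.1351. Parp9 and Dtx3l run in opposite directions and share 458 exonic bases, and since the libraries keep no strand, reads from the shared bases cannot be told apart. In all, 15 of the 39 members share exonic bases with another annotated gene. Parp14 read 6.18, 6.62, 6.33 and 6.55 log2 CPM in the controls and from 6.00 through 7.07 to 7.88 in the anomalies (0.59 ± 0.31, limma adjusted p = 0.149).

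Xaf1, which opposes an inhibitor of cell death, rose, and Slfn5, a regulator of growth, did not pass the test. Xaf1 read 4.05, 4.52, 3.86 and 4.17 log2 CPM in the controls and from 4.58 in M566 through 5.82 to 8.04 in M278. Its groups did not overlap with the pieces of M566 averaged, and the log2 fold change was 1.71 ± 0.51 (limma adjusted p = 0.023). The leg piece of M566 alone, at 3.81 log2 CPM, lay below every control of Xaf1, and the call was lost with that piece standing for M566. Slfn5 read 7.32, 8.25, 8.07 and 7.73 log2 CPM in the controls and from 6.74 through 7.89 to 8.93 in the anomalies (log2 difference 0.10 ± 0.38, limma adjusted p = 0.851). Slfn5 shares 559 exonic bases with an antisense gene, Slfn5os.

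The anomaly libraries differed widely among themselves. The median over the 39 members of the log2 level minus the control mean was 2.58 in M278, 1.84 in M610, 1.39 in F578, 1.30 in M605 and 1.13 in M580. It was 0.86 in the arm piece of M566, 0.26 in 18f and -0.16 in the leg piece of M566, beside -0.21 to 0.24 in the controls. The leg piece and 18f thus lay within or next to the range of the controls. M278 was above every control in 38 of 39 members, and it held the highest value of all libraries for 31. Between 31 and 35 members were above every control in M580, F578, M605 and M610, and 26 in the arm piece. The leg piece was above every control in 7 members and below every control in 16. The shares of all genes tested above or below every control in each library were not computed, so these counts describe the members alone. Over all genes tested the median level minus the control mean ran from -0.37 in M580 to -0.02 in 18f among the anomaly libraries.

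**Figure D3:**
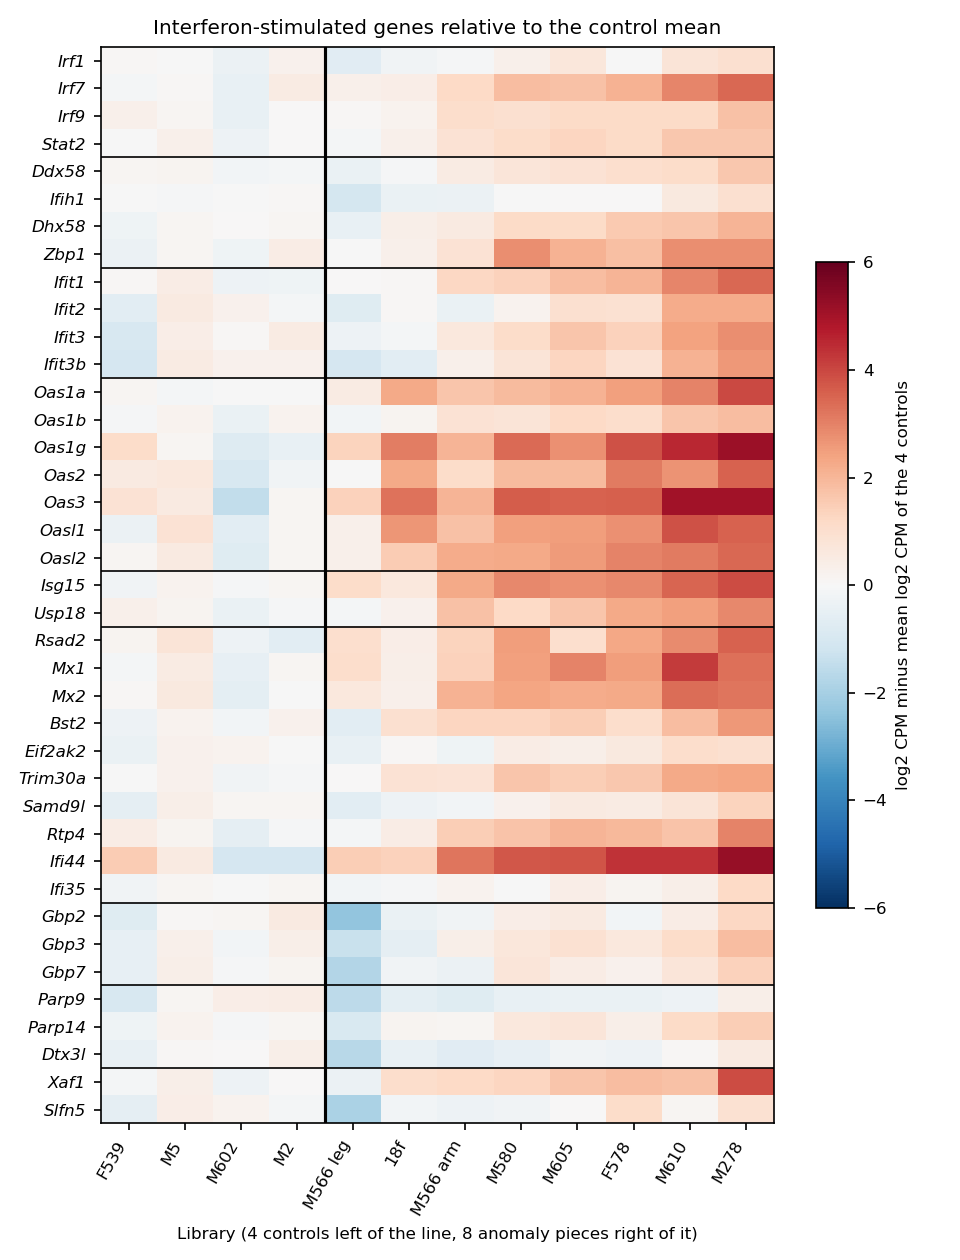
Heat map of the log2 CPM of each member minus the mean of the 4 controls (colour, red higher and blue lower), by library, with controls left of the black line and anomaly pieces right of it, placed by their median; black horizontal lines part the groups by role. M278 is above every control in 38 of 39 members (the share of all genes was not computed). In 18f the 2-5A synthetase block has the highest median of the roles, 2.26, with Oas1b inside the control range. That block also has the highest median of the roles in M580, F578, M605, M610 and M278.

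Both pieces of M566 came from the same animal, and the arm piece was higher than the leg piece in 39 of 39 members. The median arm-minus-leg difference was 0.99 on the log2 scale over the members, from 0.19 in Eif2ak2 to 2.11 in Gbp2, and -0.0012 over all genes tested. This is 1 animal, with no replicate of the comparison. With the leg piece standing for M566, 18 members were called higher, beside 14% of all genes tested. With the arm piece the count was 25, beside 15.8%.

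In 18f the roles parted. Its 2-5A synthetase genes had a median of 2.26 log2 units above the control mean, while the IFIT genes stood at -0.02, the ISG15 system at 0.45 and the guanylate-binding proteins at -0.39. The 11 members above every control in 18f were Oas1a, Oas1g, Oas2, Oas3, Oasl1, Oasl2, Isg15, Bst2, Trim30a, Xaf1 and Dhx58. The difference between roles within this single animal was not tested, and the share of all genes above every control in it was not computed. Compared with all 4 controls, the 2 fat-titled anomaly animals, M278 and 18f, gave 5 of 38 tested members called higher, beside 6.45% of all genes tested, and 0 called lower, beside 5.47%. The 5 were Oas1a, Oas2, Oas3, Oasl1 and Oasl2. The 5 subQ-titled animals gave 24 of 38, beside 16.4%. Those 2 sets differ in size and were not tested against each other. Since all controls are titled fat, the subQ title and the anomaly cannot be told apart in the second.

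Some markers of other cells also differed between the groups, and their part in the result was not tested. Over all genes tested, 15.3% were called higher and 23.2% lower. The summed level of 15 endothelial markers ran from 1782 to 3344 CPM in the controls. It was 2317 CPM in 18f and 1940 CPM in the leg piece of M566, inside that range, and 4568 to 7474 CPM in the other 6 anomaly libraries; 7 of 15 rose, among them Pecam1 (1.30 ± 0.41, limma adjusted p = 0.0276). The summed level of 15 macrophage markers ran from 975 to 1825 CPM in the controls, was 1249 CPM in the leg and 936 CPM in the arm piece of M566, and lay between 3007 and 7166 CPM in the other 6 anomaly libraries. Of these markers 8 of 15 rose, and the defining marker Adgre1 missed the threshold (1.33 ± 0.55, limma adjusted p = 0.0753). Cd163, a scavenger receptor of resident macrophages and the marker with the largest p, had a log2 difference of -0.33 ± 0.89 (limma adjusted p = 0.785). 18f had the highest macrophage sum of all libraries, 7166 CPM, with a median over all members of 0.26 log2 units above the control mean. M278, with the highest member median, 2.58, had a macrophage sum of 6609 CPM. M580, F578, M605 and M610, with member medians from 1.13 to 1.84, had sums from 3007 to 4917 CPM. The arm piece had the lowest macrophage sum with a member median of 0.86. How the sums relate to the members was not tested.

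**Figure D4:**
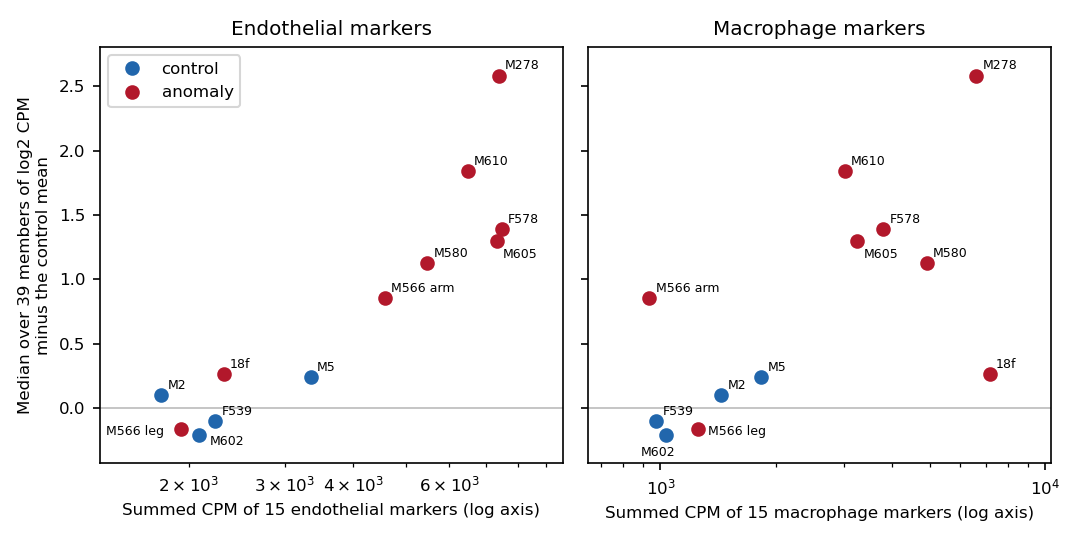
Median over the 39 members of log2 CPM minus the control mean (y axis) against the summed CPM of 15 endothelial (left) and 15 macrophage markers (right, both x axes log), 1 point per library, controls blue and anomalies red. The 6 libraries with member medians from 0.86 to 2.58 have the 6 highest endothelial sums, the highest in F578 with a member median of 1.39. All of them but the arm piece of M566 also have macrophage sums above every control, from 3007 to 6609 CPM. 18f has the highest macrophage sum with a member median of 0.26. How the sums relate to the members was not tested.

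Lymphoid markers were also higher in part. The counts of markers below stand beside 15.3% of all genes tested called higher and 23.2% called lower. Of 10 tested T and NK cell markers 5 rose, Cd3e by 2.01 ± 0.60 (limma adjusted p = 0.0224), and the sum of all 12 listed ran from 13.9 to 63.0 CPM in controls and from 61.4 to 199 CPM in anomalies. Of 9 B and plasma cell markers 3 rose, with sums of 28.1 to 189 CPM in controls and 173 to 1356 CPM in anomalies, and Cd79a missed the threshold (limma adjusted p = 0.169). Plasmacytoid dendritic cells are the specialised makers of type I interferon. Of their 4 tested markers 0 passed with limma or limma-voom and 0 had an unadjusted p under 0.05, while 2 were called higher with library totals. The sum of all 8 listed was 151 to 211 CPM in controls and 125 to 1006 CPM in anomalies. The highest sum, in the leg piece, was mostly Ly6d (892 CPM), and Siglech stood at 0.96 CPM there. Their defining marker Siglech was below the filter, at 0.756 to 1.18 CPM in controls and 0.461 to 17.2 CPM in anomalies, the highest in M278. Of 3 tested neutrophil markers 1 rose; the sum of all 8 listed was 1130 CPM in M580 and 372 CPM in the leg piece, and 9.14 to 61.8 CPM in the controls, and S100a8 missed the threshold (limma adjusted p = 0.446). All 13 adipocyte markers fell with limma, and 6 of 13 were called lower with limma-voom. Their sum was 32887 to 82056 CPM in controls and 510 to 25030 CPM in anomalies, where 18f had the most and the leg piece the least. Skin markers reached 8599 CPM in the leg and 9184 CPM in the arm piece, beside 8.16 to 974 CPM in controls, and 0 of 6 passed with either tool or had an unadjusted p under 0.05. Of 9 fibroblast markers 2 rose and 1 fell, with sums of 2102 to 5209 CPM in controls and 2640 to 16204 CPM in anomalies. Of 7 skeletal muscle markers 0 passed with either tool or had an unadjusted p under 0.05, with 680 to 2352 CPM and 16.2 to 5068 CPM.

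The interferon genes themselves were scarce. Of 21 ligand genes sought, 9 had a row, of which none passed the filter, and the other 12 were not analysed here. Ifnb1, the main type I interferon of non-immune cells, had 1 read in M580 and 2 reads in M610 and 0 in the other libraries. Ifng, the gene of interferon gamma, had a read in 3 of 4 control libraries and in 7 of 8 anomaly libraries, 82 reads in all. Ifne, an interferon of epithelia, had 31 reads in 6 anomaly libraries and none in the controls. At this depth a difference in the ligands was not detectable for most of them, since 3 reads correspond to between 0.0914 and 0.267 CPM in the libraries other than M580 and to 2.23 CPM in M580.

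Of 10 receptor and proximal signalling genes 2 rose and none fell, beside 15.3% of all genes tested called higher and 23.2% called lower. Ifngr2, a chain of the interferon gamma receptor, rose by 1.09 ± 0.28 (limma adjusted p = 0.0109), and Ifnar1, a chain of the type I receptor, by 0.66 ± 0.22 (limma adjusted p = 0.0337). The call of Ifnar1 was lost in 8 of the 11 fits that left out 1 animal (highest adjusted p 0.0915). Of 16 sensing and induction genes 11 rose and 1 fell. Irf5 rose by 1.58 ± 0.28 (limma adjusted p = 0.00219), Cgas, the DNA sensor, by 1.61 ± 0.29 (0.00232), and Sting1, the adaptor of that sensor, by 1.56 ± 0.29 (0.0027). Mavs, the mitochondrial adaptor of RIG-I and MDA5, fell by 0.92 ± 0.22 (limma adjusted p = 0.00792), and its adjusted p was 0.0643 with library totals. Tlr3, a receptor for double-stranded RNA, had a log2 difference of 0.17 ± 0.24 (limma adjusted p = 0.584).

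Of 9 negative regulators 4 rose and 1 fell. Ptpn6, a phosphatase of blood cells, rose by 2.18 ± 0.32 (limma adjusted p = 0.00119), Socs3, an inhibitor of cytokine receptors, by 2.18 ± 0.54 (0.00946), and Ptpn2 by 0.75 ± 0.16 (0.00425). Ptpn11, a widely used phosphatase, fell by 1.48 ± 0.26 (limma adjusted p = 0.00229), and Pias4 had a log2 difference of -0.01 ± 0.18 (limma adjusted p = 0.963). Of 40 tested other type I responsive genes 20 rose and 2 fell, a median of 0.91. Ifitm3, which blocks viral entry, rose by 1.52 ± 0.23 (limma adjusted p = 0.00135), Slfn2 by 2.22 ± 0.34 (0.0014), and Apol9b by 3.18 ± 0.52 (0.00166). Apol9b, with a control mean of -1.01 log2 CPM, passed the filter through its anomaly values, and its close relative Apol9a did not reach the filter. Ms4a4c, Slfn1 and Phf11b, also called higher, likewise had control means under 1 log2 CPM. Ifi27 fell by 2.03 ± 0.28 (limma adjusted p = 0.00098) and Ifi27l2a by 2.89 ± 0.77 (0.0139), and the latter was named after its value was seen. Znfx1 had a log2 difference of -0.03 ± 0.25 (limma adjusted p = 0.935).

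Of 24 tested interferon gamma responsive genes 6 rose and none fell, a median of 0.49. Ifi47 rose by 1.83 ± 0.31 (limma adjusted p = 0.00184), Gbp8 by 2.91 ± 0.55 (0.00287), Tap1, a peptide transporter for antigen display, by 1.08 ± 0.25 (0.00683), and Irgm1 by 1.35 ± 0.33 (0.00972). Gbp8 and Tgtp1, another of the 6, had control means of 0.50 and 0.45 log2 CPM and passed the filter through their anomaly values. Irgm2 had a log2 difference of 0.03 ± 0.32 (limma adjusted p = 0.94). The medians of these lists stand beside the -0.10 of all genes tested, and their counts beside 15.3% called higher and 23.2% called lower. The lists were not tested against each other.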

How the data were processed

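Whole-tissue RNA was made into unstranded poly-A libraries, per the labels' protocols. The submitters' processing notes name STAR and limma and the builds mm10 and GRCm38, with no versions. The authors deposited log2 CPM with a small prior, scaled per library for composition; their normalization function is not given in the sources used here. With that prior removed, 100% of the values fell within 0.1 of a whole multiple of a step per library, taken here as recovered reads.

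The titles give 7 anomaly animals, and the series' design text counts 8. Whether the animals shared litters is not stated. A gene was tested if its mean over 11 animals reached 1 log2 CPM, with limma 3.58.1 (statmod 1.5.0, R 4.3.3), trended robust variances and two-sided p-values adjusted by Benjamini-Hochberg over 12955 genes at 0.05. Values are log2 differences with the SE of that test. The test was also run on simulated counts with a common spread for all genes and few genes changed. These data differ in both, so that run does not bear on how sure the calls are. Names matched 32671 identifiers, and coordinates are GENCODE vM21. Counting error limits low values, since the reads carry no molecular identifiers.

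The members, gene lists and rules were chosen with earlier results of these data known. In each role the members with the largest and smallest moderated test value, and every member not called, were given in full. In the pathway lists called receptors, or up to 4 called genes and the uncalled gene with the largest p, were named. Marker lists were given as counts, sums and a defining marker; Cd163 and Ly6d were named after their values were seen. Alternatives changed the scaling, the prior, the filter, the test, the M566 pieces, the titles used, the threshold and single animals. The result of 1 gene of the signalling list is not reported here.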

Additional observations from a re-analysis of the deposited data

Results flagged for a closer look

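A gap test on the lowest and highest animal of each group flagged 3 of 78 groups, and chance flags about 1 in 20. Control animal F539 had the lowest Ifit3b, 0.974 log2 CPM, with the nearest other control at 2.245. Anomaly animal M278 had the highest Ifi35, 6.116 log2 CPM, with the nearest other anomaly animal at 5.321. The same animal had the highest Xaf1, 8.044 log2 CPM, with the nearest at 5.992.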

How the results depend on the processing

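The count of 23 members called higher ran from 14 to 26 when 1 animal was left out (14 without M602, 26 without M566), and the count of members called lower from 0 to 1 (Parp9, without F539). It was 29 with library totals, 10 at an adjusted p under 0.01 and 5 in the fat-titled animals. Over all genes, the counts of 1985 higher and 3001 lower became 4618 and 1583 with library totals, 822 and 696 in the fat-titled animals, 955 and 1547 at 0.01, and 1205 to 2295 and 1823 to 3522 when 1 animal was left out. The median member log2 fold change stayed between 1.04 and 1.77.

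Reversed log2 differences belonged to 5 members that were not called in the reported fit. With library totals Parp9 was 0.003342 and Dtx3l 0.1351. With the pieces separate Ifih1 was -0.02311, Gbp2 -0.06422 and Slfn5 -0.0516. With the leg piece Gbp2 was -0.03998 and Slfn5 -0.01217. In the subQ-titled animals Ifih1 was -0.01237, Gbp2 -0.01122 and Slfn5 -0.01035, and in the fat-titled Dtx3l was 0.04538. With 1 animal left out Ifih1 ran from -0.07612 to 0.2024, Gbp2 from -0.1259 to 0.3448 and Slfn5 from -0.07356 to 0.3004. Over all members and alternatives 65 results lost and 19 gained the threshold, and 869 kept direction and call. The causes were not tested.

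The low total of M580 limits its low genes. A fit with the animal as a random effect was not run, because limma returned no correlation with 11 animals in 12 libraries. No paired analysis was possible because the replicate numbers follow accession order and pair no animals across groups.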
